A study of Chlamydomonas reinhardtii with 42 samples.

Results

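The comparison described here was acetate against HSM in high light (HL), after the first 60 min of HL exposure on day 1, across the expressed genes of Chlamydomonas reinhardtii, a unicellular green alga. Its members were the 6 libraries, of 42 in the series, that the sample labels place at 300 min in HL: 3 in HSM, a mineral medium (0 mM acetate), and 3 in the same medium with 20 mM sodium acetate. All 6 came from the wild-type strain CC-125, grown with acetate in LL and then held in HSM for a day before time 0, so both media shared that history. At time 0, acetate was added to the acetate cultures, and the others stayed in HSM as they were. All were kept in low light (LL, 5 µmol photons per square metre and second) for 240 min from time 0. They were then moved to HL (300 µmol photons) for 60 min. The whole series crossed both media with LL and HL at several times over 2 days, in 14 conditions of 3 libraries each. The question of the comparison was how far acetate, an organic carbon source, changed transcript levels in cells that also met excess light. The labels number the libraries of a condition from 1 to 3, and the study describes them as biological replicates.

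Cells in HSM depend on photosynthesis for carbon and, when CO2 is scarce, build the CO2-concentrating mechanism (CCM): transporters at the plasma membrane, chloroplast envelope and thylakoids move inorganic carbon inward, carbonic anhydrases interconvert bicarbonate and CO2, and Rubisco is packed in the pyrenoid. In excess light, LHCSR and PSBS proteins allow energy quenching (qE), the fast dissipation of absorbed light as heat. Acetate is respired and assimilated beside photosynthesis and is known in this alga to lower both CCM and LHCSR3 transcripts.

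Total counts were 23843183, 19558462 and 21371070 in the HSM libraries and 24794273, 25402058 and 34098899 in the acetate libraries. The 100 most abundant genes took 48.2% to 55.5% of the counts in HSM and 43.5% to 45% with acetate, a difference in make-up that moved with the medium. HSM replicate 1 stood apart: chi-square per degree of freedom between it and the other HSM libraries was 28.1 and 52.2, against 7.72 between those and 7.23 to 8.55 between acetate libraries. Over all genes tested, HSM replicate 1 was the highest HSM library in 37.6% and the lowest in 45.5%, whereas in the study's list of CCM genes it was the highest in 67.6%, and it was the lowest in 10 of the 12 antenna genes of photosystem II. Named calls that were lost or gained without this library are therefore given with the value without it. Calls that were lost without another library are counted at the end and are not marked gene by gene, so a call without such a mark may still rest on 1 library. Levels below are CPM, read counts scaled to library totals after TMM correction for make-up.

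Of 13886 genes tested, 6965 (50.2%) passed the threshold of 0.05 on the adjusted p (edgeR quasi-likelihood, Benjamini-Hochberg, one fit of all 42 libraries): 3182 (22.9%) were higher with acetate and 3783 (27.2%) lower. Most of the changes were small. The median size of the log2 fold change was 0.45 over all genes and 0.80 over the genes called, 2437 genes (17.6%) were called with a log2 fold change of at least 1 in size, 1238 of them (8.92%) higher and 1199 (8.63%) lower, and 497 reached 2 in size. In 8958 genes (64.5%) the 3 acetate libraries and the 3 HSM libraries did not overlap, 4021 (29.0%) higher and 4937 (35.6%) lower with acetate. For a single gene, 3 libraries against 3 cannot give less than p = 0.1 in a two-sided exact permutation test, so such a gap is a description.

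The split between directions depended on the scaling and on single acetate libraries. Under TMM, 45.7% of the called genes were higher with acetate. This share was 58.1% without acetate replicate 1 and 58.4% without acetate replicate 2, so that the larger direction turned over. With library size as the only scaling, log2 fold changes were 0.19 higher in the median gene than after TMM, and 3304 genes were called higher and 1765 lower. Without HSM replicate 1, 6162 genes were called, of which 5875 were among the 6965. Fitted on the 6 libraries alone, 7789 genes (56.1%) were called, 6690 of them shared. The fit over all libraries takes the spread of a gene from all 14 conditions, so that several genes with tight groups here passed the test in the fit of the 6 libraries only.

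**Figure D1:**
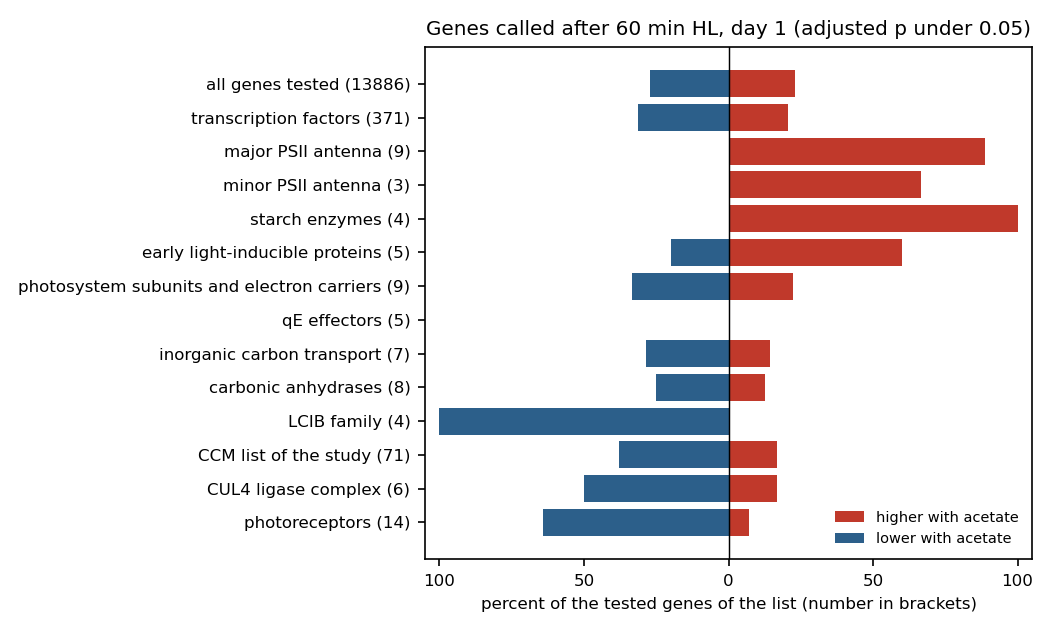
Share of the tested genes of each list called higher (red, to the right) or lower (blue, to the left) with acetate after 60 min of HL on day 1; the number of tested genes stands in brackets and bars count genes with an adjusted p under 0.05. Against 22.9% higher and 27.2% lower over all genes, 8 of 9 major antenna genes and all 4 starch genes were called higher, all 4 genes of the LCIB family lower, and none of the 5 qE genes either way.

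The antenna of photosystem II (PSII) was higher with acetate as a group. LHCBM proteins form the trimers of the major light-harvesting complex, and LHCB4, LHCB5 and LHCB7 are minor antenna proteins. Of 9 LHCBM genes, 8 were called higher and none lower, and 2 of the 3 minor antenna genes were called higher. The median log2 fold change over the 12 genes was 1.102, against -0.09 over all genes tested. In each of the 12, every acetate library was above every HSM library, as in 29.0% of all genes.

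LHCBM8 differed most, with 107, 84.3 and 84.9 CPM with acetate and 24.7, 16.9 and 18.1 CPM in HSM, a log2 fold change of 2.21 ± 0.41 (SE, adjusted p = 3.0e-05). The groups were far apart, and HSM replicate 1 was here the highest HSM library. LHCBM7 stood at 315, 242 and 298 CPM with acetate and 55.7, 110.1 and 104 CPM in HSM (log2 1.66 ± 0.64, adjusted p = 0.029). LHCBM3 had 654, 582 and 635 CPM with acetate and 178, 252 and 263 CPM in HSM (log2 1.43 ± 0.48, adjusted p = 0.013). In both, HSM replicate 1 was the lowest of all 6 libraries.

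Of the minor antenna, LHCB5 was at 487, 492 and 448 CPM with acetate and 156, 197 and 204 CPM in HSM (log2 1.36 ± 0.50, adjusted p = 0.024). LHCB5, also known as CP26, links trimers to the PSII core. LHCB7 was called with a small difference (log2 0.31 ± 0.13, adjusted p = 0.048). LHCB4 (CP29) had 852, 899 and 815 CPM with acetate and 578, 687 and 703 CPM in HSM and missed the threshold (log2 0.38 ± 0.23, adjusted p = 0.17, and 0.0066 in the 6 libraries alone).

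The remaining LHCBM genes lay between. LHCBM4, LHCBM6 and LHCBM9 had log2 fold changes of 1.11, 1.099 and 1.15, LHCBM5 and LHCBM2 of 0.84 and 0.61, all called. LHCBM1, the most abundant of the 9, had 1961, 1622 and 1882 CPM with acetate and 852, 1234 and 1182 CPM in HSM, and missed the threshold (log2 0.74 ± 0.39, adjusted p = 0.11, and 0.0016 in the 6 libraries alone). Some LHCBM genes are near-identical, and how reads that fit several of them were counted is not given in the sources used here, so their single values are uncertain.

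Which of these calls were made depended on the libraries fitted. All 12 were called higher in the fit of the 6 libraries alone, and 5 of 12 (all LHCBM) without HSM replicate 1, with none lower in either fit. LHCBM2, LHCBM3, LHCBM7, LHCB5 and LHCB7 lost their call without that library, at log2 0.63, 1.27, 1.41, 1.25 and 0.17 (adjusted p = 0.080, 0.061, 0.12, 0.081 and 0.33). With library size as the only scaling 9 of 12 were called higher.

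**Figure D2:**
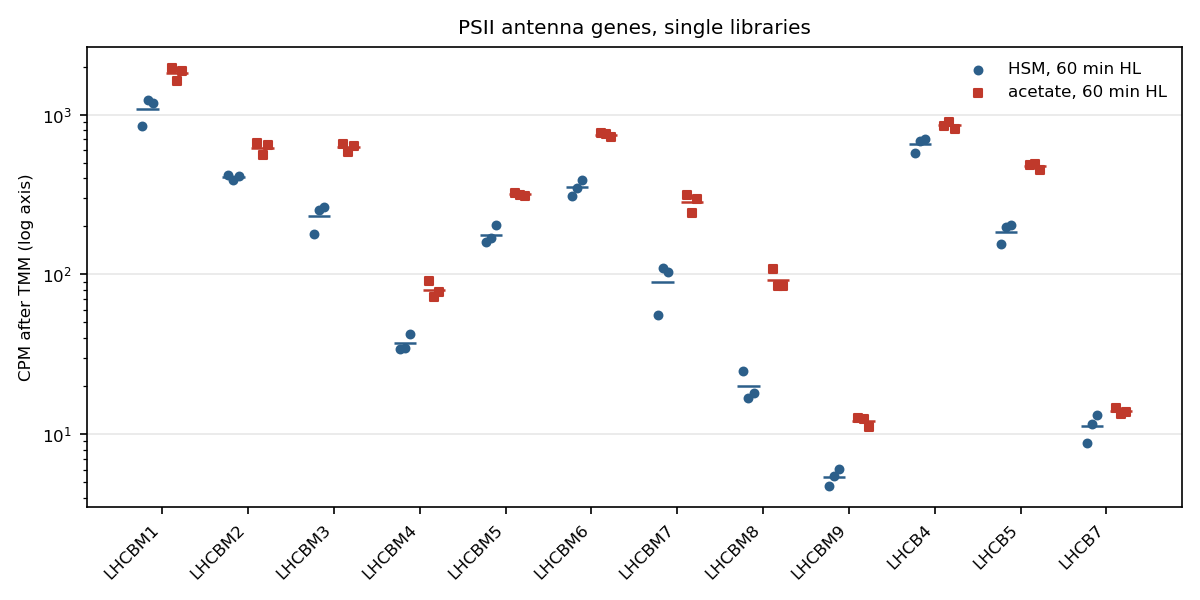
Levels of the 12 PSII antenna genes in each of the 3 HSM libraries (blue circles) and 3 acetate libraries (red squares) after 60 min of HL on day 1; the vertical log axis gives CPM after TMM, points within a group stand in the order of replicates 1 to 3 and bars are means. The red points lie above the blue ones in every gene, with the widest gap in LHCBM8 (log2 fold change 2.21) and the narrowest in LHCB7 (0.31).

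The early light-inducible proteins (ELI), pigment-binding relatives of the antenna that respond to light stress, did not move in one direction. ELI2 was lower, at 57.1, 62.6 and 55.2 CPM with acetate against 186, 148 and 142 CPM in HSM (log2 -1.45 ± 0.14, adjusted p = 1.3e-10). ELI1, ELI3 and ELI4 were called higher, with log2 fold changes of 0.48, 0.72 and 0.95, ELI3 not without HSM replicate 1 (log2 0.73, adjusted p = 0.055). ELI5 was at 2.45 to 3.19 CPM with acetate and 2.63 to 2.76 CPM in HSM, with overlapping groups.

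Of 9 photosystem subunits and electron carriers, 2 were called higher and 3 lower, near the 22.9% and 27.2% of all genes. CYC6 encodes cytochrome c6, which carries electrons between cytochrome b6f and photosystem I in place of plastocyanin. It had 57.8, 52.0 and 52.5 CPM with acetate and 31.0, 20.2 and 16.1 CPM in HSM (log2 1.27 ± 0.22, adjusted p = 1.1e-05). PSBQ, an extrinsic subunit of the oxygen-evolving complex, was also higher (log2 0.57, adjusted p = 0.026), but not without HSM replicate 1 (log2 0.52, adjusted p = 0.079).

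FDX1, the main photosynthetic ferredoxin, was lower, at 1548, 1665 and 1654 CPM with acetate against 3362, 3006 and 2598 CPM in HSM (log2 -0.88 ± 0.26, adjusted p = 0.0051). PSBP3 (log2 -0.56) and PSAG, a subunit of photosystem I (log2 -0.60), were called lower too, PSAG not without HSM replicate 1 (log2 -0.50, adjusted p = 0.14). PSAK, another photosystem I subunit, had log2 -0.61 and missed the threshold (adjusted p = 0.072, and 0.0028 in the 6 libraries alone). With library size only, 1 of the 9 was called lower.

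Inorganic carbon transporters were not called more often than other genes at this time, at 42.9% against 50.2%. Of 7 tested, 2 were called lower and 1 higher, against 27.2% and 22.9% over all genes. Their median log2 fold change was -0.446, against -0.09 over all genes. Acetate was lower without overlap in 4 of the 7 and higher without overlap in 0, against 35.6% and 29.0% of all genes. In the fit of the 6 libraries, 3 were called lower and 0 higher, against 3909 and 3880 of all 13886 genes. HSM replicate 1 was the highest HSM library in 6 of the 7. HLA3, an ABC transporter for bicarbonate at the plasma membrane, had 2895, 3036 and 3139 CPM with acetate and 4574, 4300.4 and 4501 CPM in HSM. The groups did not overlap, and the log2 fold change of -0.56 ± 0.37 was not called over all libraries (adjusted p = 0.21) but was in the 6 libraries alone (adjusted p = 0.0050). LCIA, the bicarbonate channel of the chloroplast envelope, stood at 563, 530.1 and 562 CPM with acetate and 1259, 1038 and 966 CPM in HSM (log2 -0.98 ± 0.42, adjusted p = 0.052, and 2.6e-04 in the 6 libraries).

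CCP2, a relative of CCP1 on the study's CCM list, was called lower (log2 -0.62 ± 0.25, adjusted p = 0.038), as was LCI11, a bestrophin-like protein (log2 -0.45 ± 0.16, adjusted p = 0.020, but 0.054 in the 6 libraries alone). Neither passed without HSM replicate 1, where their log2 fold changes were -0.51 and -0.28. LCI1, a plasma membrane transporter, had 388, 361 and 469 CPM with acetate and 649, 374 and 362 CPM in HSM, so that the groups overlapped. HSM replicate 1 was the highest of the 6, and the log2 fold change of -0.18 became 0.14 without it, uncalled in both fits.

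BST1, a bestrophin-like protein of the thylakoids, was called higher. It had 92.8, 66.8 and 116 CPM with acetate and 81.7, 24.4 and 26.3 CPM in HSM (log2 1.06 ± 0.34, adjusted p = 0.0099, but 0.053 in the 6 libraries alone). HSM replicate 1 lay among the acetate libraries, so the groups overlapped. Without that library the log2 fold change was 1.86 (adjusted p = 3.0e-05). RHP1, an Rh-type CO2 channel, was at 2.16 to 2.73 CPM with acetate and 1.63 to 2.17 CPM in HSM and was not called.

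Of 8 carbonic anhydrase genes on the study's list, which does not hold CAH1, 1 was called higher and 2 lower, against 22.9% and 27.2% of all genes. CAH4 and CAH5 encode mitochondrial enzymes. CAH5 had 1048, 1064 and 901 CPM with acetate and 2579, 2362 and 2192 CPM in HSM (log2 -1.24 ± 0.48, adjusted p = 0.031; 0.069 without HSM replicate 1). CAH4 had 2429, 2331 and 2041 CPM with acetate and 5704, 4899 and 4506 CPM in HSM (log2 -1.15 ± 0.56, adjusted p = 0.084, and 2.1e-04 in the 6 libraries). The acetate libraries were below the HSM libraries in both genes without overlap. The pair is near-identical in sequence, so reads may have been shared between them.

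CAH6 was lower in all 3 libraries (log2 -0.66 ± 0.16, adjusted p = 5.6e-04), and CAH7 slightly higher (log2 0.40, adjusted p = 0.030), but not without HSM replicate 1 (log2 0.28, adjusted p = 0.18). CAH2, a periplasmic enzyme that is known to fall when CO2 is scarce, was at 2.99, 3.62 and 3.60 CPM with acetate and 2.41, 1.99 and 1.73 CPM in HSM (log2 0.74 ± 0.37, adjusted p = 0.097, and 0.0035 in the 6 libraries). CAH3, the enzyme of the thylakoid lumen, overlapped between groups (log2 -0.10), and CAH8 had log2 0.31 (adjusted p = 0.10), and was called in the 6 libraries alone (adjusted p = 0.024) and without HSM replicate 1 (log2 0.43, adjusted p = 0.043).

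The LCIB family, whose members LCIB and LCIC form a complex around the pyrenoid, was called lower in all 4 members, against 27.2% of all genes. LCIB had 701, 647 and 903 CPM with acetate and 2066, 1137 and 914 CPM in HSM (log2 -0.87 ± 0.23, adjusted p = 0.0016). The groups almost met, with replicate 1 high within HSM, and without it the log2 fold change was -0.45 and was not called (adjusted p = 0.086). LCIC had 1257, 1113 and 1356 CPM with acetate and 2831, 2199 and 1888 CPM in HSM (log2 -0.89 ± 0.20, adjusted p = 3.3e-04), LCID had log2 -0.79 and LCIE log2 -0.80. These 3 were also called without HSM replicate 1.

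Of 3 tested regulators of the CCM, 2 were called lower, against 27.2% of all genes. LCR1, a MYB-type factor that acts downstream of CIA5, had 15.4, 14.7 and 18.3 CPM with acetate and 73.3, 52.3 and 60.1 CPM in HSM (log2 -1.94 ± 0.29, adjusted p = 7.4e-07). The groups were far apart, without overlap. CIA5, the zinc-finger protein required for induction of the CCM, had 43.8, 43.9 and 47.4 CPM with acetate and 66.8, 73.6 and 72.6 CPM in HSM (log2 -0.66 ± 0.10, adjusted p = 7.1e-07). CAS, a calcium-binding thylakoid protein, was at 351, 358 and 344 CPM with acetate and 284, 288 and 276 CPM in HSM, and was called in the 6 libraries only (log2 0.31 ± 0.20, adjusted p = 0.20 and 0.0050).

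Other low-CO2-inducible genes were lower or near 0. LCI30 had 628, 486 and 549 CPM with acetate and 1126, 1276 and 1206 CPM in HSM (log2 -1.12, adjusted p = 5.5e-05). LCI24 and LCI9 were also called lower (log2 -0.93 and -0.48), LCI9 not without HSM replicate 1 (log2 -0.46, adjusted p = 0.051). Over the study's list of 71 tested CCM genes, 12 were called higher and 27 lower, against 22.9% and 27.2% of all genes. Together 54.9% of the list was called, against 50.2%, and its median log2 fold change was -0.21. Without HSM replicate 1 the counts were 13 and 16, and with library size only 16 and 13, so the direction of the list as a whole was not stable.

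Of 4 genes of Rubisco and the pyrenoid matrix, 1 was called higher and 1 lower, near the 22.9% and 27.2% of all genes. RBCS1 and RBCS2 encode the Rubisco small subunit and are near-identical, so reads may have been shared between them. RBCS1 was called higher (log2 0.48, adjusted p = 0.015) and the more abundant RBCS2 lower (log2 -0.58, adjusted p = 0.043), the latter not without HSM replicate 1 (adjusted p = 0.20). RCA1, Rubisco activase, and LCI5, the linker that gathers Rubisco, overlapped between media. LCI5 had 909, 799 and 949 CPM with acetate and 1092, 613 and 502 CPM in HSM. Only HSM replicate 1 exceeded the acetate libraries, and without it RCA1 and LCI5 were called higher (log2 0.51 and 0.67, adjusted p = 0.0082 and 0.0094).

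All 4 starch enzymes on the study's list were called higher in the fit of all libraries, against 22.9% of all genes. They were also called higher in the 6 libraries alone, with library size only and without HSM replicate 1. SBE4, a starch branching enzyme, had 22.0, 21.0 and 21.6 CPM with acetate and 7.57, 8.53 and 10.8 CPM in HSM (log2 1.26 ± 0.15, adjusted p = 1.3e-08). SBE3 had 148, 151 and 152 CPM with acetate and 82.9, 97.0 and 100.4 CPM in HSM (log2 0.69 ± 0.12, adjusted p = 1.4e-05). SBE1 and STA2, the granule-bound starch synthase, had log2 fold changes of 0.53 and 0.41.

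**Figure D3:**
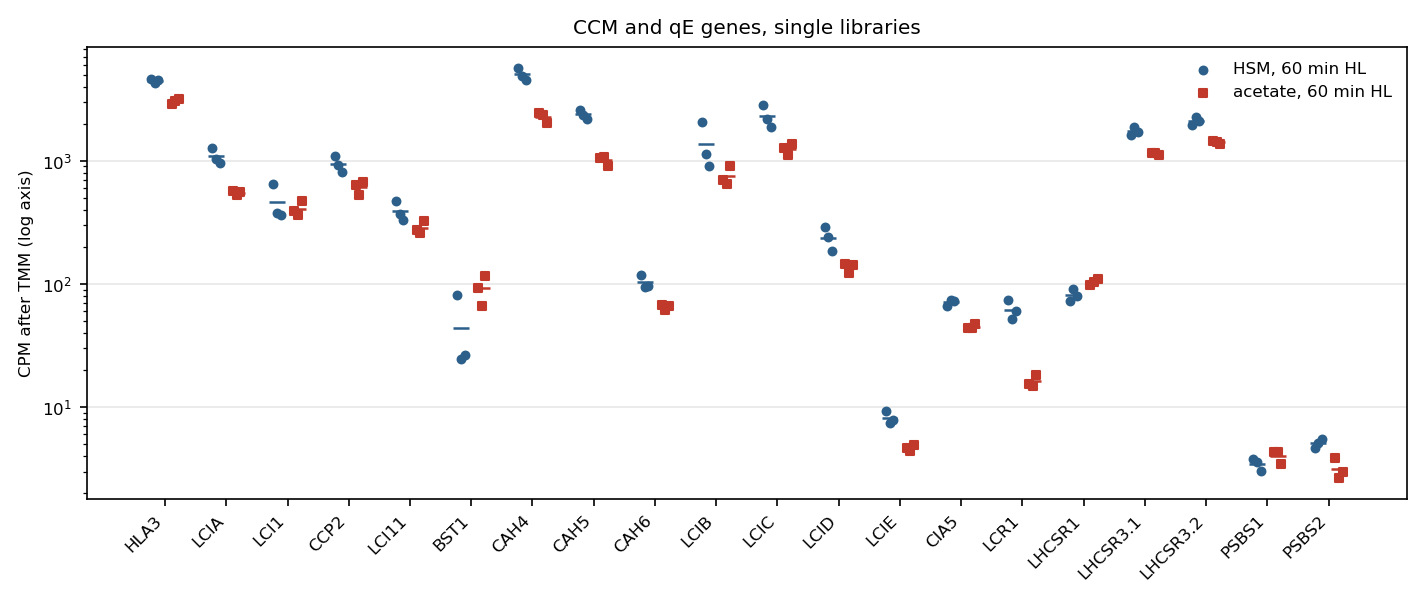
Levels of 15 CCM genes and 5 qE genes in each HSM library (blue circles) and acetate library (red squares) after 60 min of HL on day 1; the vertical log axis gives CPM after TMM, points stand in the order of replicates 1 to 3 and bars are means. LCR1 shows the widest gap (log2 fold change -1.94), and in BST1, LCI1 and PSBS1 the groups overlap.

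None of the 5 qE genes passed edgeR's test over all libraries, 0 of 5 had an unadjusted p under 0.05, and DESeq2 and limma-voom also called 0. In the 6 libraries alone, 1 was called higher and 3 lower, against 3880 and 3909 of all 13886 genes. LHCSR3.1 and LHCSR3.2 encode the LHCSR3 protein, the main qE effector in this alga. LHCSR3.1 had 1147, 1163 and 1106 CPM with acetate and 1629, 1870.0 and 1720.2 CPM in HSM (log2 -0.61 ± 0.39, adjusted p = 0.20). LHCSR3.2 had 1441, 1427 and 1357 CPM with acetate and 1964, 2256 and 2084 CPM in HSM (log2 -0.58 ± 0.38, adjusted p = 0.21). The acetate libraries were lower in both genes without overlap, and in the 6 libraries alone both were called (adjusted p = 0.0017 and 0.0028). Both genes are near-identical, so their counts may have been split.

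LHCSR1, which also quenches, stood on the other side. It had 97.3, 104 and 109.8 CPM with acetate and 72.7, 90.6 and 79.6 CPM in HSM (log2 0.36 ± 0.26, adjusted p = 0.26, and 0.0058 in the 6 libraries). PSBS1 and PSBS2, near-identical genes of a qE protein that is made transiently in this alga, were at 2.65 to 5.53 CPM in all 6 libraries. PSBS2 was lower without overlap (log2 -0.69 ± 0.40, adjusted p = 0.15, and 0.0074 in the 6 libraries), and PSBS1 overlapped.

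Around qE, ZEP1, zeaxanthin epoxidase (log2 -0.32, adjusted p = 0.038, and 0.052 without HSM replicate 1), and VDR1, a relative of violaxanthin de-epoxidase (log2 -0.59, adjusted p = 8.8e-04), were called lower. STT7, the kinase of state transitions, was at 213, 203 and 216 CPM with acetate and 265, 243 and 228 CPM in HSM and was not called (adjusted p = 0.16). Of 3 genes of the singlet oxygen response, PSBP2 was lower, at 2.94, 3.22 and 1.98 CPM with acetate and 10.5, 10.3 and 9.07 CPM in HSM (log2 -1.89 ± 0.20, adjusted p = 1.1e-09). SAK1, a regulator of that response, was slightly higher (log2 0.43, adjusted p = 0.0074), and SOR1, a bZIP factor, overlapped (log2 -0.25).

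Light signalling genes were called lower more often than higher, under TMM scaling. COP1 and SPA1 form the substrate receptor of the CUL4 ubiquitin ligase that restrains light-induced genes. COP1 had 508, 505 and 477 CPM with acetate and 1760.5, 1149 and 1001 CPM in HSM (log2 -1.39 ± 0.19, adjusted p = 2.6e-07; log2 -1.11 without HSM replicate 1). SPA1 had 6.47, 5.74 and 7.33 CPM with acetate and 12.6, 16.1 and 13.0 CPM in HSM (log2 -1.09 ± 0.15, adjusted p = 2.7e-07). DET1 was also called lower (log2 -0.76), CUL4 and DDB1 were not (log2 -0.26 and -0.37), and the conjugating enzyme Cr_UBC17 was higher (log2 0.54). DDB1 was called in the 6 libraries alone (adjusted p = 0.017), and CUL4 without HSM replicate 1 (log2 -0.34, adjusted p = 0.041).

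Of the factors that act with or against this ligase, NF-YB, NF-YC and ROC75 were called lower (log2 -0.35, -0.45 and -0.81), and CrCO, the CONSTANS homologue, was not (log2 -0.16). Of these 4, only ROC75 was called without HSM replicate 1, where NF-YB and NF-YC had log2 -0.29 and -0.29 (adjusted p = 0.056 and 0.27). NF-YC also missed the threshold in the 6 libraries alone (adjusted p = 0.050). Of 14 photoreceptor genes, 9 were called lower and 1 higher, against 27.2% and 22.9% of all genes, with a median log2 fold change of -0.38. COP10, an opsin unrelated to COP1, had 55.4, 51.6 and 53.8 CPM with acetate and 86.1, 99.6 and 114 CPM in HSM (log2 -0.90 ± 0.13, adjusted p = 2.7e-07).

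Other opsins (COP9, log2 -0.62; COP7, log2 -0.54; COP6, log2 -0.48), the channelrhodopsin CHR2 (log2 -0.65) and the cryptochromes aCry and CRY-DASH1 (log2 -0.71 and -0.43) were called lower, as were COP5 and pCry (log2 -0.32 and -0.27), neither of them in the 6 libraries alone (adjusted p = 0.084 and 0.057) and pCry not without HSM replicate 1 (adjusted p = 0.058). UVR8, the UV-B receptor, was higher (log2 0.30), but not called without HSM replicate 1 (log2 0.23, adjusted p = 0.13). PHOT1, phototropin, overlapped between media, at 148 to 156 CPM with acetate and 135 to 154 CPM in HSM. HSM replicate 1 was the lowest HSM library in 10 of the 14. With library size as the only scaling 1 photoreceptor gene was called lower and none higher.

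The study also predicted regulators of qE from a network that used these libraries among others, so their behaviour here is no independent evidence. Of 15 tested, of 17 on its list, 2 were called higher and 6 lower, together 53.3% against 50.2% of all genes. LCR1, ROC75, ZEP1 and CrCO, given above, are among them. LCI8 and RWP14 were called higher (log2 0.47 and 0.57), RWP14 not without HSM replicate 1 (log2 0.32, adjusted p = 0.32), and QER7 was called lower (log2 -0.83).

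Of genes that the study lists as coregulators, GSP1, a homeodomain factor of plus gametes, had 7.37, 6.84 and 6.28 CPM with acetate and 2.90, 3.19 and 3.74 CPM in HSM (log2 1.05 ± 0.27, adjusted p = 0.0014). The groups did not overlap. NAB1, an RNA-binding repressor of LHCBM translation, was called higher (log2 0.62), but not without HSM replicate 1 (log2 0.60, adjusted p = 0.10). CPL20 was called lower (log2 -0.46, adjusted p = 0.043), but not in the 6 libraries alone (adjusted p = 0.072).

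Transcription factors as a class followed the background. Of 371 tested, of 407 on the study's list, 77 were called higher and 116 lower, together 52%, and the median log2 fold change was -0.14. Against 22.9% of all genes called higher and 27.2% lower, 3 of 24 SBP factors were called higher and 11 lower, and 4 of 31 MYB-related factors higher and 12 lower. Of 8 bHLH factors, 5 were called higher and 2 lower, and all 3 TAZ factors were called lower. The study's list of 55 photoprotection genes likewise had 16 called higher and 20 lower, a median log2 fold change of -0.22, and HSM replicate 1 as its lowest HSM library in 35 genes. With library size only, 76 factors were called higher and 48 lower.

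Single factors differed by far more than their class. Cre16.g675100, a CONSTANS-like factor other than CrCO, had 19.6, 17.2 and 19.6 CPM with acetate and 2.94, 1.95 and 2.26 CPM in HSM (log2 2.97 ± 0.28, adjusted p = 7.5e-11). Cre06.g262800, a PHD-finger factor, had 37.3, 41.0 and 32.0 CPM with acetate and 5.56, 5.49 and 6.12 CPM in HSM (log2 2.68 ± 0.23). The GNAT-family gene Cre13.g586450 had log2 2.28 and the HMG factor Cre06.g261450 log2 2.13, and the C2H2 zinc-finger gene Cre17.g696300 log2 2.04. The bHLH factor Cre07.g332250 was near the limit of detection, at 0.740 to 1.05 CPM with acetate and 0.0752 to 0.157 CPM in HSM.

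On the lower side, Cre03.g194950, a sigma-70-like factor, had 35.5, 37.4 and 37.6 CPM with acetate and 146, 155 and 169 CPM in HSM (log2 -2.09 ± 0.15, adjusted p = 2.2e-13). Sigma factors direct the plastid-encoded RNA polymerase. Cre03.g212977, a TAZ-domain factor, had 26.2, 24.2 and 25.6 CPM with acetate and 110.1, 97.7 and 97.0 CPM in HSM (log2 -2.002 ± 0.20). Cre14.g631750, a bZIP factor, had 1.78, 1.33 and 1.77 CPM with acetate and 15.3, 6.99 and 5.84 CPM in HSM, with replicate 1 the highest (log2 -2.52, and -1.97 without it). The MYB-related gene Cre12.g522400 had 0 to 3 counts in the acetate libraries and 28 to 50 in HSM, too few for a fold.

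The 15 largest rises and the 15 largest falls, among called genes with at least 10 CPM in the higher group and separate groups, held no gene that the lists used here annotate. The rises began at log2 3.49 and the falls at -2.86. Cre07.g346950 rose most, with 272, 215 and 298 CPM with acetate and 6.76, 6.54 and 7.096 CPM in HSM (log2 5.26 ± 0.26, adjusted p = 5.4e-18). Next was Cre01.g053000, with 86.2, 92.7 and 77.0 CPM with acetate and 1.80, 2.104 and 3.23 CPM in HSM (log2 5.15 ± 0.25). The groups were far apart in both genes.

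Cre07.g334150 fell most, with 0.0516, 0.0766 and 0.156 CPM with acetate, from 2 to 8 counts, and 21.4, 12.5 and 12.5 CPM in HSM (log2 -7.21 ± 0.38, adjusted p = 3.8e-17). Cre17.g734725 had 0.670, 0.995 and 0.564 CPM with acetate and 24.0, 14.6 and 19.4 CPM in HSM (log2 -4.71 ± 0.53). Of the 15 rises, 2 were direct neighbours in the genome, and so were 2 of the 15 falls. At 240 min of LL, where 32.9% of all genes were called higher and 31.9% lower with acetate, 13 of the 15 rises were called higher and all 15 falls called lower.

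The acetate effect after 60 min of HL on day 1 was the smallest of the 4 sampling times compared. Its median size of 0.45 (log2) stood against 0.65 at 240 min of LL just before, 0.67 after 15 min of HL and 0.94 after 60 min of HL on day 2, and the other times had 64.8%, 65.4% and 74.0% of genes called. The difference between its acetate effect and that at 240 min of LL, which no library shares, was itself called in 4877 genes (35.1%), 3629 of them with the smaller effect after 60 min of HL and 1248 with the larger. Against 15 min of HL it was called in 4373 genes (31.5%), 3350 of the smaller kind, and against 60 min of HL on day 2 in 7648 genes (55.1%), 6475 of the smaller kind. Scaled by library size alone, the positive and negative differences, 2183 and 2694 against 240 min of LL, became 934 and 2675. Against 15 min of HL they went from 1935 and 2438 to 578 and 3953, and against day 2 from 3724 and 3924 to 5710 and 1520. Time since acetate was added at time 0 and time in HL differ together from 240 min of LL and from 15 min of HL, and cannot be told apart there. The sampling on day 2 had the same 60 min of HL and differed in the time since time 0 (1500 against 300 min).

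Wide differences were found in several CCM genes and, of the qE genes, in LHCSR3.1 and LHCSR3.2. Some genes without an annotation had wider ones. In CAH4, the acetate effect was log2 -6.75 ± 0.74 at 240 min of LL and -1.15 ± 0.56 after 60 min of HL, a difference of 5.60 ± 0.88 (adjusted p = 8.5e-06). Between these times its mean level went from 160.0 to 5036 CPM in HSM and from 1.43 to 2267 CPM with acetate. Transcripts thus accumulated in HL in both media, and from a far lower level with acetate.

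The same held for LCIA, whose acetate effect went from log2 -5.95 to -0.98 (difference 4.97 ± 0.66, adjusted p = 6.6e-07), HLA3, from -4.78 to -0.56 (difference 4.22 ± 0.54, adjusted p = 3.2e-07), and LCI1, from -6.18 to -0.18 (difference 5.99 ± 0.54, adjusted p = 2.5e-10). HLA3 rose from 29.4 ± 0.875 CPM (SD, n = 3) to 3024 ± 122 CPM with acetate. LCR1 moved less, from log2 -4.43 to -1.94 (adjusted p of the difference 2.9e-05), and CIA5 was not called different, at -0.76 and -0.66 (difference 0.10 ± 0.14). Over the 71 CCM genes, 38 had a called difference towards a less negative or more positive effect after 60 min of HL and 5 the reverse, against 15.7% and 19.4% of all genes. These counts were again 38 and 5 without HSM replicate 1, and 31 and 6 with library size only. Against 15 min of HL they were 26 and 3 (all genes 13.9% and 17.6%), and 14 and 8 with library size only. Against day 2 they were 20 and 25 (all genes 26.8% and 28.3%), and 28 and 11 with library size only, so the direction over the list depended on the time compared and, against day 2, on the scaling.

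LHCSR3.1 went from log2 -5.70 ± 0.56 at 240 min of LL, through -3.39 after 15 min of HL, to -0.61 ± 0.39 after 60 min, and was at -4.52 after 60 min of HL on day 2. The differences from the 60 min value of day 1 were called at all 3 times (adjusted p = 8.0e-07, 2.8e-04 and 5.7e-07). LHCSR3.2 did likewise, with effects of -5.99, -2.70, -0.58 and -3.62. Its level in these libraries went from a mean of 46.4 to 2102 CPM in HSM and from 0.676 to 1408 CPM with acetate between 240 min of LL and 60 min of HL. PSBS1 and PSBS2 had effects of -2.66 and -3.01 after 15 min of HL, and both differed from 60 min (adjusted p = 1.0e-05 and 0.0013). Of the 5 qE genes, 2 had a called positive difference from 240 min of LL and 0 a negative one (all genes 15.7% and 19.4%). LHCSR1, PSBS1 and PSBS2 were not called there. Against 15 min of HL the counts were 4 and 0 (all genes 13.9% and 17.6%). Against day 2 they were 2 and 1 (all genes 26.8% and 28.3%), the negative one being LHCSR1.

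**Figure D4:**
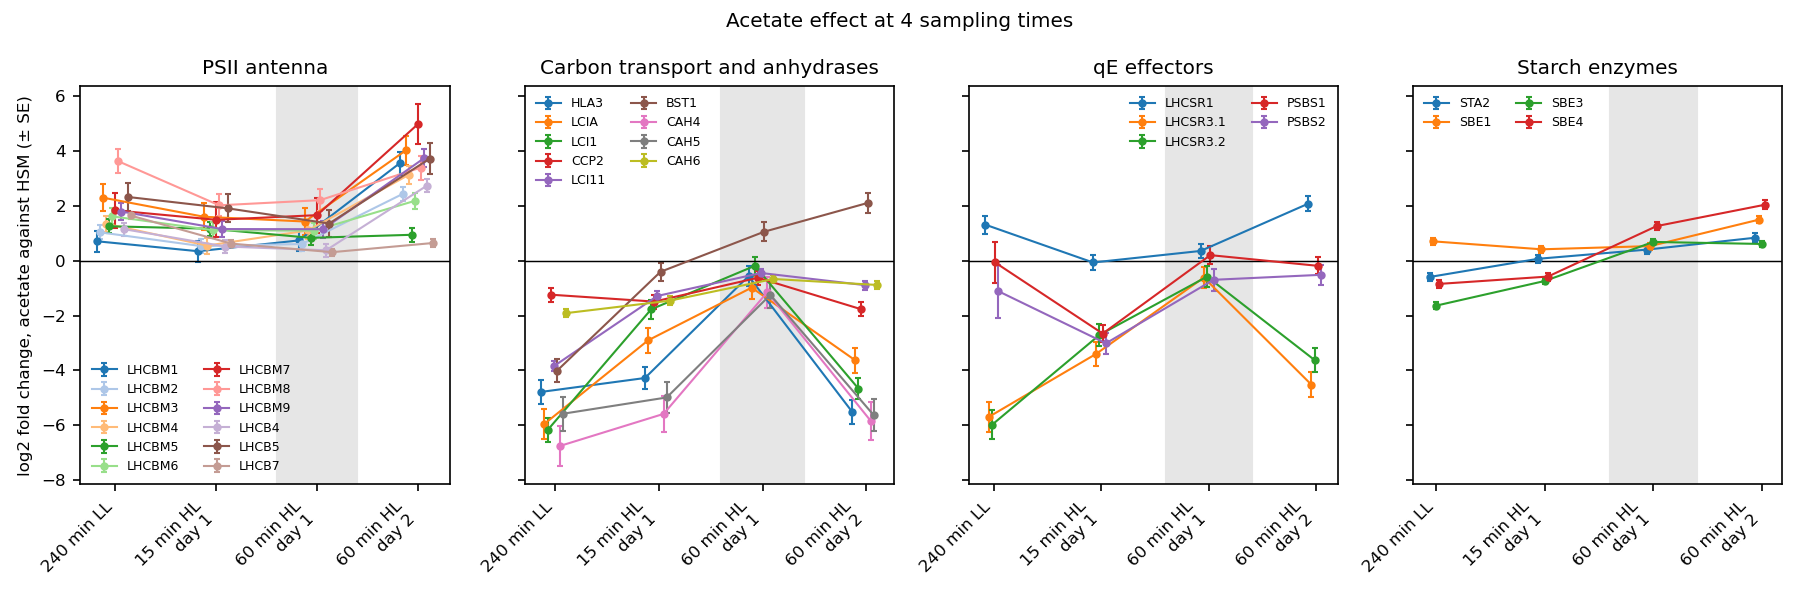
Acetate effect (log2 fold change, acetate against HSM, ± SE; vertical axis) at 240 min of LL, after 15 and 60 min of HL on day 1 (grey band at 60 min) and after 60 min of HL on day 2, for PSII antenna, carbon transport and carbonic anhydrase, qE and starch genes; the lines only join the values of one gene. HLA3, LCIA, LCI1, CAH4, CAH5, LHCSR3.1 and LHCSR3.2 each lie nearest to 0 in the grey band (CAH4 at -1.15, against -6.75 at 240 min of LL), while the antenna genes stay above 0 at each time.

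Between 240 min of LL and 60 min of HL itself, 65.4% of all genes were called different in HSM and 51.8% with acetate. LHCSR1 rose in both media (log2 5.37 in HSM and 4.41 with acetate), as did CCP2 (log2 4.14 and 4.75). SBE4 fell by 2.24 on the log2 scale in HSM and had log2 -0.13 with acetate, where it was not called.

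The antenna genes did not show the differences seen in LHCSR3.1. Over the 12, the median acetate effect was log2 1.64 at 240 min of LL, 1.14 (median of the effects after 15 min of HL) and 1.102 after 60 min, and the difference from 240 min of LL was called in 2 of 12, LHCBM8 and LHCB7, both towards a smaller effect. Over all genes, 19.4% had a called negative difference from 240 min of LL, so 2 of 12 was near that share. The difference was called in 1 of 12 by DESeq2, by limma-voom and without HSM replicate 1, where LHCBM8 was lost (difference -1.23, adjusted p = 0.11). None of the 12 was called different from 15 min of HL by edgeR, DESeq2 or limma-voom, and 0 had an unadjusted p under 0.05. Over all genes, edgeR called 31.5% there. By 60 min of HL on day 2 the median was 3.27, and 9 of the 12 had a larger effect on that day, for example LHCBM1 (3.56 against 0.74, adjusted p of the difference 5.7e-05). These were negative differences, which were called in 28.3% of all genes. The acetate effects of the 5 ELI genes also all had called differences from day 2, each towards a larger or more positive effect on day 2, against the same 28.3% of all genes. With library size only 3 of the 5 were called, and 4 when only the libraries compared were fitted.

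Several genes changed sides. SBE3 had an acetate effect of log2 -1.64 ± 0.12 at 240 min of LL, -0.74 after 15 min of HL and 0.69 ± 0.12 after 60 min (adjusted p of the difference from LL 2.1e-12). SBE4 went from -0.84 to 1.26 (adjusted p = 2.3e-09) and STA2 from -0.59 to 0.41 (adjusted p = 5.6e-04). Thus 3 of 4 starch enzymes were lower with acetate at 240 min of LL and higher after 60 min of HL. After 15 min of HL, SBE4, like SBE3, was still called lower (log2 -0.58). In HSM, SBE3 went from 311 CPM in LL to 93.4 CPM after 60 min of HL, and with acetate from 99.8 to 150.4 CPM. DET1 changed the other way, from log2 1.23 to -0.76 (adjusted p = 3.1e-05).

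Among transcription factors, Cre12.g515050, a PHD-finger gene, was higher with acetate at the other 3 times (log2 1.08, 1.996 and 0.93) and lower after 60 min of HL on day 1, at 6.88, 6.51 and 6.94 CPM with acetate and 7.36, 12.4 and 12.6 CPM in HSM (log2 -0.67 ± 0.17, adjusted p = 0.0010). HSM replicate 1 was the lowest HSM library, and the groups did not overlap. Cre08.g383000, an AP2 factor, had log2 3.31 at 240 min of LL and -0.52 after 60 min of HL (adjusted p of the difference 2.1e-07), the latter uncalled, with overlapping groups, but called without HSM replicate 1 (log2 -0.85, adjusted p = 0.020).

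Cre07.g346950, the first of the 15 rises selected above, had log2 -1.33 at 240 min of LL, with means of 28.9 CPM in HSM and 11.5 CPM with acetate, and 5.26 after 60 min of HL (adjusted p of the difference 9.6e-17). Its acetate effect was 1.35 after 15 min of HL and 2.93 after 60 min of HL on day 2. By contrast Cre01.g053000 had effects of 4.60, 5.26 and 5.13 at those 3 times, and its differences from 60 min of day 1 were not called.

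Many genes were called at several times. Of the 6965 genes, 5168 (74.2%) were also called at 240 min of LL, where 64.8% of all genes were called. They made up 57.4% of those called there, and 4791 of them had the same sign. In all 4 comparisons, 3111 genes were called with one sign, 1708 higher and 1403 lower with acetate, and 176 of the 6965 were called at 60 min of HL on day 1 and in none of the other 3. Across genes, which are not independent replicates, the acetate effects at 60 min and at 240 min of LL had a Pearson correlation of 0.685 (n = 13886 genes, no shared library).

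**Figure D5:**
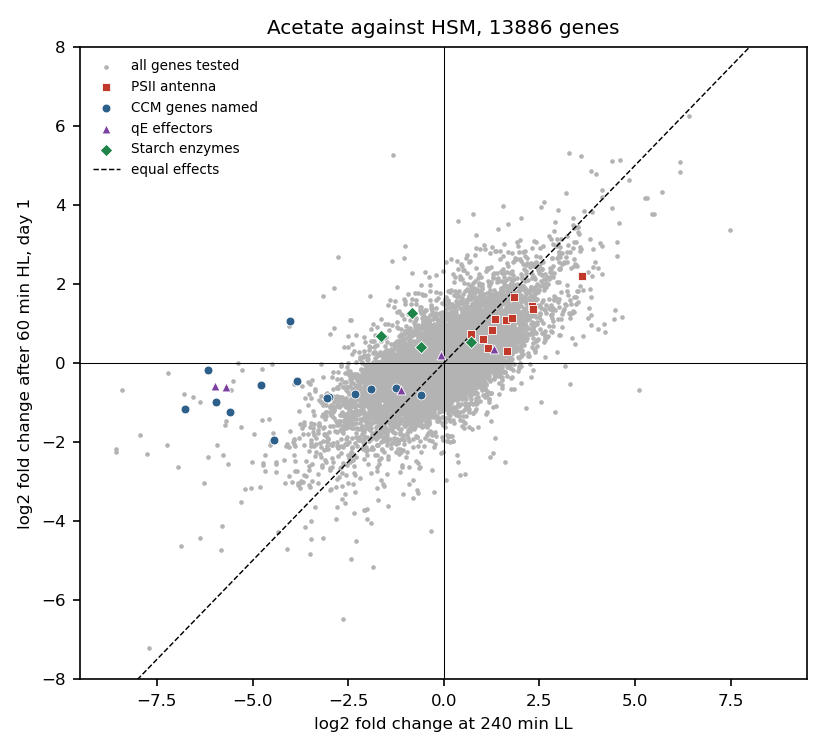
Acetate effect (log2 fold change, acetate against HSM) of each of 13886 genes at 240 min of LL (horizontal axis) and after 60 min of HL on day 1 (vertical axis), with PSII antenna genes (red squares), named CCM genes (blue circles), qE genes (purple triangles) and starch enzymes (green diamonds); the dashed line marks equal effects. HLA3, LCIA, LCI1, CAH4, CAH5, LHCSR3.1 and LHCSR3.2 lie far above the dashed line, and BST1 (-4.01 against 1.06) and 3 starch enzymes lie on opposite sides of 0.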

How the data were processed

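RNA-seq libraries were compared as tables of read counts. Per the study's methods, BBduk was used to remove adapters and STAR (2.5.3 in the submitters' processing notes) to align to assembly version 5, and the authors made the deposited counts per gene with HTSeq-count, reading the reverse strand. How reads that fit several genes were treated is not given in the sources used here.

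A gene was kept if 9 or more of the 42 libraries had 1 CPM or more (13886 of 17305 with a count). They were tested with edgeR 4.0.16 in R 4.3.3 (TMM, quasi-likelihood F test, 1 coefficient for each of 14 conditions), with Benjamini-Hochberg adjustment and a threshold of 0.05. Differences between acetate effects were contrasts of contrasts in this fit. The procedure was tested on simulated data. Alternatives used DESeq2 1.42.0, limma 3.58.1 (voom), RLE factors, library size, no filter, the 6 libraries alone, a replicate block and leaving out each library. Alternatives for gene lists, and for differences without HSM replicate 1, were chosen after seeing the data. Total counts of 19558462 to 34098899 in the libraries compared limit precision only for genes of a few counts.

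Gene names and lists came from the study's supplementary lists (520 genes annotated), except for BST1, which the study's source data name without an identifier. BST1 was taken as Cre16.g662600, the gene whose log levels in the libraries of this series best followed the BST1 values of the study (r = 0.987, next gene 0.957). Its identity is thus inferred from these data. Of 41 further lists by symbol, 19 matched no gene. Members and lists were chosen with earlier results of these data known. Genes were named if they led the fit (the 15 largest changes in each direction), led a list (up to 4 in each direction), led a difference (5 in each direction), or belonged to small lists. Of the 15 largest changes in each direction, none of them annotated, only the first 2 in each direction are named. Genes without an annotation that led a difference are not named, unless they are among these.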

Additional observations from a re-analysis of the deposited data

Results flagged for a closer look

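Some named genes had called acetate effects of opposite sign after 60 min of HL on day 1 and at another time, with the difference itself called by edgeR (contrast of the 2 effects, Benjamini-Hochberg over all genes). Differences are the log2 acetate effect after 60 min of HL on day 1 minus that at the other time. Against 240 min of LL they were 5.07 for BST1, 1.00 for STA2, 2.32 for SBE3, 2.11 for SBE4 and 6.59 for Cre07.g346950, and -1.99 for DET1, -1.12 for CRY-DASH1 and -1.74 for Cre12.g515050.

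Against 15 min of HL on day 1 the differences were 1.42 for SBE3, 1.84 for SBE4 and 2.62 for CYC6, and -1.11 for CPL20 and -2.66 for Cre12.g515050. CYC6 was lower with acetate at 15 min (log2 -1.35) and on day 2 (log2 -2.96) and higher in between (1.27).

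Against 60 min of HL on day 2 the differences were -1.60 for LCIB, -0.90 for CIA5, -1.49 for LCI24, -2.16 for PSAG, -0.90 for PSBP3, -2.17 for DET1, -0.92 for CRY-DASH1, -1.90 for QER7 and -1.60 for Cre12.g515050, each lower with acetate on day 1 and higher on day 2. CYC6 had the opposite order, with a difference of 4.23. Over all genes tested, both effects were called with opposite signs in 377 genes against 240 min of LL, 333 against 15 min of HL and 683 against day 2. Groups of 3 libraries allow no test for a single library far from the others.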

How the results depend on the processing

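Under RLE factors, DESeq2, limma-voom, no filter and the 6 libraries alone, the counts of called genes stayed within 1.5 times of those given. With a log2 fold change of at least 1 in size, 2437 genes were called, 1238 higher and 1199 lower. Library size alone left 1765 genes lower and 3304 higher, and moved the differences of effects to 934 positive against 240 min of LL, to 578 positive and 3953 negative against 15 min of HL, and to 5710 positive and 1520 negative against day 2. Leaving out 1 library gave 5939 to 6334 called genes, 2822 to 3486 higher and 2471 to 3419 lower. The lower count was 2517 without acetate replicate 1 and 2471 without acetate replicate 2. The differences ranged from 4223 to 4962 against 240 min of LL, from 3514 to 4708 against 15 min of HL (negative ones from 1479, without replicate 1 of HSM at 15 min, to 2633) and from 7052 to 7981 against day 2. The negative ones against 15 min of HL were 1559 both without acetate replicate 3 at 15 min and without acetate replicate 1 at 60 min. The cause was not tested. Among named genes, LCI1 turned to log2 0.042, CAH3 to 0.11 and CrCO to 0.042 with library size only. Leaving out 1 library gave log2 -0.33 to 0.14 for LCI1 (above 0 without HSM replicate 1 or acetate replicate 2) and -0.21 to 0.042 for CAH3 (above 0 without HSM replicate 1, acetate replicate 1 or acetate replicate 2). None of these 3 was called in the fit of all libraries. Of the named genes, 22 lost their call and 5 gained one without HSM replicate 1, and 28 lost and 4 gained one with library size only. Leaving out HSM replicate 2 or 3, 19 and 13 lost their call and 2 and 1 gained one. Leaving out acetate replicate 1, 2 or 3, 18, 20 and 16 lost their call and 1, 2 and 0 gained one. Losses from these other libraries are not marked gene by gene above.

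Whether replicate numbers pair the libraries was not settled. Deviations from the group means of acetate and HSM libraries with the same number correlated at 0.121, 0.0603 and -0.097, and those with different numbers at -0.176 to 0.186. Deviations from a mean of 3 libraries depend on each other, so these values cannot exclude a pairing. With the replicate block 6995 genes were called, and 6916 with the number in the titles' brackets as block.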
